A study of Mus musculus with 8 samples.

Results

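The genes described here belong to the unfolded protein response and the amino acid stress response. They number 36 and were taken from a list of known pathway genes by name, keeping rows whose mean TPM over 8 libraries reached 0.5. TPM is a level per transcript length, scaled to the same total in each library. Of the 36 genes, 35 had a row of their own and passed that minimum, out of 55223 loci in the table and 16908 loci that passed it. The remaining gene, Manf, a secreted ER stress protein, shares a merged row named for its neighbour Rbm15b and was not tested.

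The cells were muscle stem cells (satellite cells), which repair adult muscle fibres, taken from female wildtype C57BL/6J mice aged 6 to 8 weeks. All cultures spent 2 days on Matrigel and then 6 h without serum, in 200 ng/ml of a soluble BMP receptor (BMPR-IA/ALK3-Fc) that binds BMP ligands. They then received a 1 h pulse of 100 ng/ml BMP4, 100 ng/ml BMP6 or only the vehicle, which was 4 mM HCl with 0.1% BSA. Cell isolations 48 and 54 each gave 1 vehicle and 1 BMP4 library, and isolations 75 and 77 each gave 1 vehicle and 1 BMP6 library. Each of the 4 groups therefore holds 2 libraries. Ligand and experiment coincide, so effects of the ligand and of the experiment cannot be told apart except through each ligand's own vehicle. The labels list the cultures as biological replicates and do not say how many mice went into each. The codes behind these numbers (IP48 and so on) are not spelled out there, and reading them as cell isolations is an assumption.

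The depth was 48012825 to 58002740 estimated reads per library. Muscle stem cell markers were present: Pax7 lay between 11.1 and 16.9 TPM and Myod1 between 422 and 839 TPM, while Chodl was at most 0.262 TPM. The endothelial list summed to at most 0.942 TPM, and the immune list of 6 genes to between 11.96 and 18.5 TPM. Most of the immune sum was Itgam (10.9 to 17.1 TPM), Cd68 lay between 0.919 and 2.01 TPM, and Ptprc and Adgre1 were listed at 0 in all 8 libraries. The isolations differed in markers of differentiating muscle (Myog, Ckm, Acta1, Myh3, Tnnt2, Mymk, Actc1 and Mylpf), and all 8 of these genes were detected. Their summed level in the vehicle libraries was 5547, 19285, 641 and 888 TPM in isolations 48, 54, 75 and 77. The BMP targets Id1, Smad6 and Smad7 rose after both ligands when each library was compared with the vehicle of its own isolation, with Smad7 up by 3.02 ± 0.10 (SE) on the log2 scale after BMP4 and by 2.35 ± 0.10 after BMP6 (limma with the isolation as a replicate block, adjusted p = 0.0033 and 0.012).

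The endoplasmic reticulum (ER) folds secreted and membrane proteins with chaperones such as BiP, the product of Hspa5. When unfolded proteins build up, 3 sensors respond. IRE1 splices the Xbp1 transcript, ATF6 is cut to release a transcription factor, and PERK phosphorylates eIF2alpha, which lowers translation in general while favouring that of ATF4. Amino acid shortage reaches the same eIF2alpha step through GCN2, which is why ATF4 targets for amino acid synthesis and uptake respond to both stresses. Muscle stem cells are known to keep eIF2alpha phosphorylated in quiescence, and myoblasts pass through ER stress signalling as they differentiate.

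Both branches have known promoter elements, and these were searched as exact letters on both strands in the RefSeq promoter windows of build GRCm38.p6. The windows run from 250 bases before the transcript start to 50 bases after it. A window was found for 32 of the 36 genes. The ER stress response element, written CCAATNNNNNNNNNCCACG, is read by ATF6 and XBP1 together with NF-Y. It stood in 8 of the 32 genes (25.0%) and in 37 of 27025 genes with a window (0.137%). Its second form, ATTGGNCCACG, was in 2 of the 32 genes (6.25%) and in 12 of all genes (0.044%). The C/EBP-ATF element TGATGNAA, which ATF4 dimers bind, was in 7 of the 32 genes (21.9%) and in 1219 of all genes (4.51%). The first and second form share their CCACG end, and the ATTGG of the second is CCAAT read on the opposite strand. The C/EBP-ATF element holds neither of these blocks. Some of these genes are those in which the elements were defined, so the shares describe the list and are no test.

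The matches of the first and second form are printed to show which chaperone and degradation genes carry the element, with the fixed letters in capitals and the free bases in lower case.
Hspa5: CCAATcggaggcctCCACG
Calr: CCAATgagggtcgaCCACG
Hsp90b1, distal: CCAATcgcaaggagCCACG
Hsp90b1, proximal: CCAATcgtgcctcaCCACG
Canx: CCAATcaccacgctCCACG
Pdia6: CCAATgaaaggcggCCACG
Dnajc3: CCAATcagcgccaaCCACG
Creld2: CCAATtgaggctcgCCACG
Syvn1: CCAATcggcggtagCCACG
Herpud1, second form: ATTGGgCCACG
Dnajb11, second form: ATTGGcCCACG
Counted from the transcript start along the gene, the first base of the site is at -65 in Hspa5, -162 in Calr, -98 in Pdia6 and -44 in Syvn1. The matches of Calr, Creld2 and the proximal one of Hsp90b1 lie on the opposite strand and are printed as read there. In Calr, -162 is thus the last of the printed letters. The C/EBP-ATF element was found in Asns, Chac1, Fgf21, Herpud1, Nupr1, Slc7a11 and Trib3. Slc7a11 has a pair of them, starting at -66 and -47 on opposite strands.

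Herpud1 was the only one of the 32 genes with matches of both an ER stress element and the C/EBP-ATF element. Its 250 bases before the start, at chr8:94386179-94386428 on the plus strand of GRCm38.p6, are shown for that reason, with both sites in capitals. The C/EBP-ATF element comes first and reads on the opposite strand.
Herpud1: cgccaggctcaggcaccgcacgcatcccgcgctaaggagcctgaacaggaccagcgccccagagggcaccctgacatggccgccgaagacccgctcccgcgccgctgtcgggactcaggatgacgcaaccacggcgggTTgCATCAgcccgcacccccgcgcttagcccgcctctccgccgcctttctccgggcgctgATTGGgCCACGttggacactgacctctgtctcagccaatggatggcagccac
The same stretch of Hspa5, at chr2:34771840-34772089 on the plus strand, shows the site of the textbook ER stress gene with no C/EBP-ATF element of these letters.
Hspa5: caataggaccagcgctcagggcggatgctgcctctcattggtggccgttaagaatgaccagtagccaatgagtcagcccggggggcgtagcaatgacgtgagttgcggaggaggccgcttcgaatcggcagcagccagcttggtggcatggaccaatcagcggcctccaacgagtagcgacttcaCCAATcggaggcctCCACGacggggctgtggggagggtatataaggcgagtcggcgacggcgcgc

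The plot of all 35 genes by library shows blocks of colour that follow the isolation, not the pulse.

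**Figure D1:**
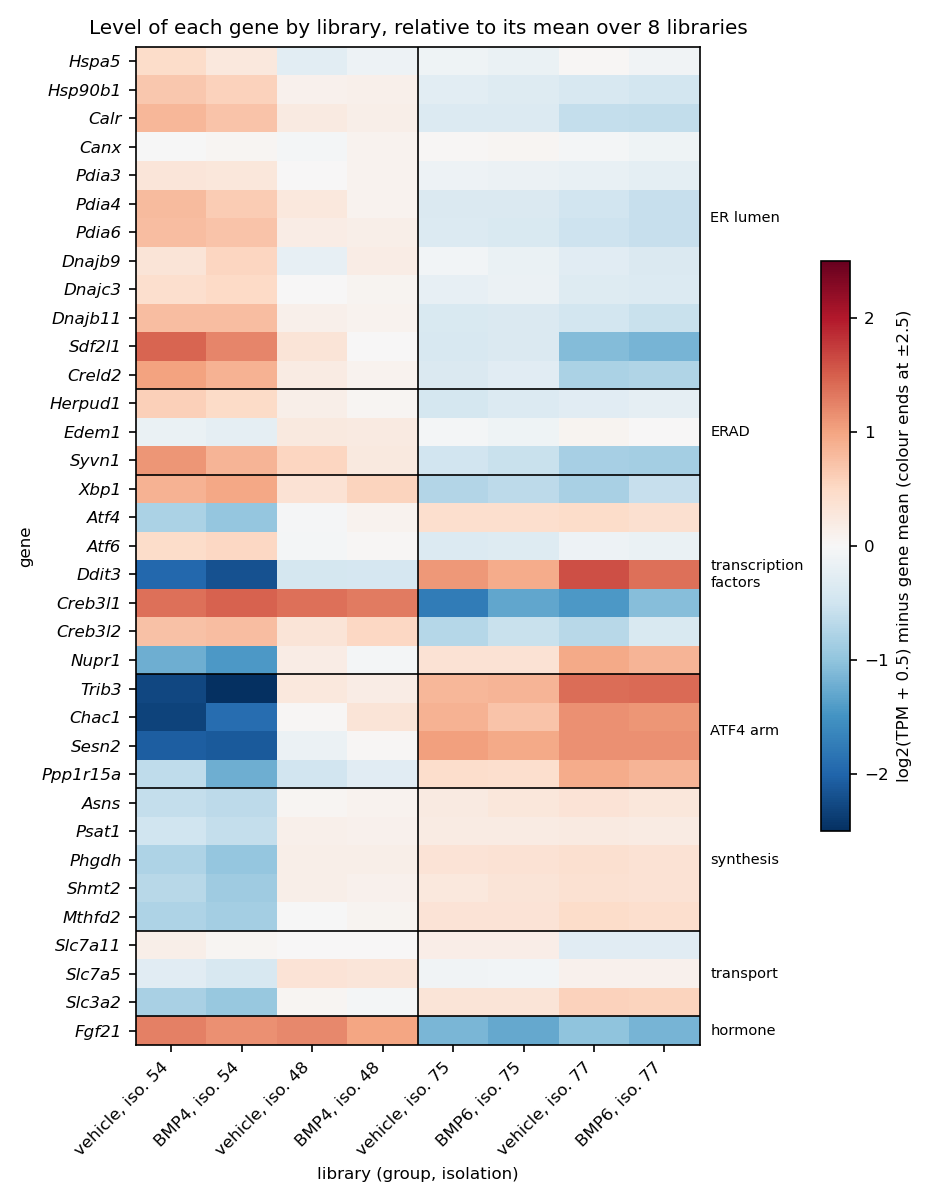
Level of each gene (rows, grouped by role) in each library (columns, group and isolation), as log2(TPM + 0.5) minus the gene's mean over the 8 libraries. Paired vehicle and stimulated columns look alike, isolation 54 has the lowest Trib3, Chac1, Sesn2 and Ddit3 and the highest Sdf2l1, and Creb3l1 and Fgf21 divide at the line between the experiments.

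The first comparison asks how the unstimulated cells of the 2 experiments differed. Vehicle cells of isolations 75 and 77 had lower levels of 3 ER folding genes (Calr, Pdia4 and Pdia6), 2 degradation genes (Syvn1 and Herpud1), the transcription factors Xbp1, Creb3l1 and Creb3l2 and the hormone gene Fgf21 than those of isolations 48 and 54, and higher levels of Ddit3 and Ppp1r15a. Of the 35 genes, 11 passed an adjusted p of 0.05 in limma over all 16908 loci, 9 lower and 2 higher. That is 31.4% of the genes, near the background, since 27.2% of all tested loci passed. By direction, 25.7% of the genes were called lower against 16.6% of all loci, and 5.71% higher against 10.6%. The median log2 difference of the 35 genes was -0.15, and that of all loci was -0.01. Both vehicle libraries of isolations 75 and 77 lay below both of isolations 48 and 54 for 16 genes (45.7%, against 38.8% of all loci). They lay above them for 13 genes (37.1%, against 34.9%). With the stimulated libraries included, 16 genes were again lower and 13 higher without overlap, but the share of all loci was not counted. Separation of the vehicle groups is thus common over all loci, and a lack of overlap named below does not set a gene apart. Differentiating muscle markers moved with this comparison, as given above, and their part in it was not tested. In bulk RNA a smaller number of cells of a type and less RNA per cell cannot be told apart.

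Positions of the called genes are in build GRCm39, as in the authors' files, and span the whole gene. Among the ER lumen chaperones and folding enzymes, 3 of 12 were called lower and 0 higher. That is 25.0%, against 27.2% of all loci called and 16.6% called lower. Their median log2 difference was -0.80. Calr (calreticulin, a lectin chaperone of glycoproteins, at chr8:85568479-85573563) was at 284, 430.4, 191 and 162 TPM in the vehicle libraries of isolations 48, 54, 75 and 77. After the pulse it was at 269, 398, 193 and 158 TPM. The experiments did not overlap, and isolation 54 stood highest. Its vehicle level was lower by 0.99 ± 0.26 (SE) on the log2 scale in isolations 75 and 77 (limma, adjusted p = 0.038), a 1.99-fold difference.

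Pdia4 and Pdia6, which form and rearrange disulfide bonds, showed the same order. In the vehicle libraries, Pdia4 (chr6:47773075-47790364) was at 73.0, 106, 46.9 and 43.4 TPM in isolations 48, 54, 75 and 77. Pdia6 (chr12:17316546-17334771) was at 159, 241, 109.8 and 97.7 TPM. The stimulated libraries ran from 40.6 to 94.99 TPM for Pdia4 and from 93.9 to 230.5 TPM for Pdia6. Neither gene overlapped between the experiments. The log2 differences between the vehicles were -0.95 ± 0.24 for Pdia4 and -0.91 ± 0.25 for Pdia6 (limma, adjusted p = 0.034 and 0.042).

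The highest chaperones by TPM were Hspa5 and Hsp90b1. Hspa5, whose product BiP also holds the 3 sensors inactive, was at 266, 437, 294 and 321 TPM in the vehicle libraries and at 289, 379, 283 and 299 TPM after the pulse. Its vehicle groups overlapped, and the log2 difference was -0.15 ± 0.24 (95% interval -0.73 to 0.44, limma, adjusted p = 0.66). Hsp90b1, which encodes the ER form of HSP90, was at 287, 426, 222 and 202 TPM in the vehicle libraries and at 295, 398, 213 and 194 TPM after the pulse. The experiments did not overlap for Hsp90b1, but the difference of -0.72 ± 0.22 missed the threshold (limma, adjusted p = 0.054).

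The other 7 genes of this group did not pass the test. Sdf2l1, a cofactor of BiP, had the largest ratio of highest to lowest library among them, 6.57 (6.11 to 40.2 TPM), and a vehicle difference of -1.64 ± 0.55 (limma, adjusted p = 0.068). Creld2, an ER disulfide isomerase, ran from 15.7 to 55.8 TPM with a difference of -1.18 ± 0.37. Dnajb11, Dnajc3 and Pdia3 had differences of -0.87, -0.47 and -0.32, and Dnajb9 one of -0.24. Canx, the membrane-bound partner of calreticulin, stayed between 154 and 176 TPM in all 8 libraries (difference 0.02, 95% interval -0.22 to 0.25). Transcripts named Manf within the merged row summed to 63.4, 160, 79.4 and 64.2 TPM in the vehicle libraries, so isolation 54 stood highest there too.

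ER-associated degradation returns misfolded proteins to the cytosol for the proteasome. Syvn1, which encodes the ubiquitin ligase HRD1 (chr19:6096606-6103742), was at 34.2, 50.5, 16.5 and 13.0 TPM in the vehicle libraries and at 27.7, 42.2, 15.7 and 12.8 TPM after the pulse. Herpud1, a scaffold of the same complex (chr8:95113066-95122005), was at 90.2, 123, 60.1 and 67.2 TPM and then at 84.7, 113, 64.2 and 69.8 TPM. Both were lower in isolations 75 and 77 without overlap between the experiments. The log2 differences between vehicles were -1.47 ± 0.27 for Syvn1 and -0.73 ± 0.20 for Herpud1 (limma, adjusted p = 0.018 and 0.041). Edem1, a mannosidase-like protein that sorts glycoproteins for degradation, was at 16.9, 12.5, 13.6 and 14.8 TPM in the vehicle libraries and at 16.7, 12.1, 13.1 and 14.2 TPM after the pulse. It overlapped and had a difference of -0.03 ± 0.20. Syvn1 overlaps Mrpl49 on the other strand, and the counting used no strand option, so reads of the shared part cannot be told apart.

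Of the 7 transcription factors 4 passed (57.1%, against 27.2% of all loci), 3 lower and 1 higher. Xbp1 (chr11:5470659-5475893), the factor activated by IRE1, was at 76.1, 109, 35.5 and 33.5 TPM in the vehicle libraries and at 88.0, 117, 37.6 and 39.8 TPM after the pulse. Creb3l1 (chr2:91812673-91854847), an ER-anchored factor that drives secretory and collagen genes, was at 62.9, 62.2, 6.72 and 8.47 TPM and then at 59.5, 67.2, 9.31 and 11.2 TPM. Creb3l2 (chr6:37304190-37419081), its close relative, was at 5.12, 7.01, 2.24 and 2.30 TPM and then at 5.95, 7.18, 2.56 and 2.98 TPM. All 3 were lower in isolations 75 and 77 with no overlap. Creb3l1 differed little between isolations of one experiment and had the most negative vehicle difference of the 35 genes, -2.97 ± 0.15 or 7.83-fold (limma, adjusted p = 0.0023). The differences were -1.39 ± 0.21 for Xbp1 and -1.23 ± 0.19 for Creb3l2 (limma, adjusted p = 0.011 for both).

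Ddit3, which encodes CHOP, a factor that promotes cell death under lasting stress (chr10:127126643-127132157), went the other way. It was at 28.4, 9.53, 83.2 and 119.9 TPM in the vehicle libraries and at 28.8, 8.20, 74.3 and 101 TPM after the pulse. Isolation 54 was lowest and isolation 77 highest, with no overlap between experiments. The vehicle difference was 2.56 ± 0.68, or 5.89-fold (limma, adjusted p = 0.038). Ddit3 overlaps Mars1, a methionyl-tRNA synthetase gene on the other strand with a mean of 94.4 TPM, and the files do not show how reads of the shared part were split.

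Atf4, the factor at the centre of the amino acid response, was at 339, 198, 461 and 473 TPM in the vehicle libraries and at 365, 177, 461 and 456 TPM after the pulse. Nupr1, a stress-induced chromatin protein, was at 61.1, 22.7, 69.0 and 104 TPM and then at 51.8, 19.6, 69.2 and 97.3 TPM. Both were lowest in isolation 54 and higher in isolations 75 and 77 without overlap. Neither passed, with differences of 0.85 ± 0.37 and 1.17 ± 0.59 (limma, adjusted p = 0.12 and 0.17). Much of the control of ATF4 is at translation, which these data do not measure. Atf6 ran from 27.0 to 49.5 TPM and had a difference of -0.45 ± 0.23.

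The splice form of Xbp1 made by IRE1 lacks 26 bases. The annotation used by the authors holds 1 transcript with a gap of that length, at chr11:5474270-5474295. That transcript was listed at 0 in all 8 libraries, where a 0 can also be a failed estimate. The level of spliced Xbp1 was therefore not read from these files.

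The feedback and effector genes downstream of ATF4 are Trib3 (a pseudokinase that restrains ATF4 and CHOP), Chac1 (which degrades glutathione), Sesn2 (a leucine sensor that restrains mTORC1) and Ppp1r15a (GADD34, which brings the phosphatase that reverses eIF2alpha phosphorylation). Of these 4 genes, 1 was called higher and 0 lower (25.0%, against 27.2% of all loci called), with a median difference of 2.13. Ppp1r15a (chr7:45172341-45175692) was at 57.7, 51.9, 111 and 154 TPM in the vehicle libraries and at 66.9, 34.4, 108 and 147 TPM after the pulse. The experiments did not overlap, and the vehicle difference was 1.25 ± 0.33, or 2.37-fold (limma, adjusted p = 0.039). Trib3 was at 80.1, 13.4, 119 and 177 TPM in the vehicle libraries and at 76.3, 10.1, 120.0 and 178 TPM after the pulse. Chac1 was at 23.1, 4.16, 41.5 and 50.4 TPM and then at 28.2, 5.69, 37.4 and 49.2 TPM. Both had all 4 libraries of isolations 75 and 77 above those of isolations 48 and 54. Their differences, 2.12 ± 1.09 for Trib3 and 2.14 ± 0.91 for Chac1, did not pass (limma, adjusted p = 0.17 and 0.12). In these genes isolations 48 and 54 lay far apart within one group. Sesn2 ran from 3.06 to 33.1 TPM with a difference of 2.19 ± 0.80 (limma, adjusted p = 0.083).

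Serine, one-carbon and asparagine synthesis supplies amino acids and folate units, and its enzymes are ATF4 targets in many cells. Phgdh, the first enzyme of serine synthesis and the gene with the highest mean level of all 35 (374 TPM), was at 392, 207, 447 and 465 TPM in the vehicle libraries and at 389.5, 180.2, 454 and 454 TPM after the pulse. Shmt2, which turns serine to glycine in mitochondria, was at 379, 209, 409 and 445 TPM and then at 368, 184, 427 and 437 TPM. Psat1, the transaminase of serine synthesis, was at 279, 179, 295 and 299 TPM and then at 273, 168, 295 and 294 TPM. In all 3 genes isolation 54 stood apart as the low one, and isolations 75 and 77 lay above isolation 48 by a small margin. None of the 5 genes passed (0 of 5 also at an unadjusted p under 0.05), with differences from 0.41 (Psat1) to 0.80 (Mthfd2, a mitochondrial folate enzyme). Asns, the asparagine synthetase, ran from 125 to 251 TPM and Mthfd2 from 103 to 257 TPM.

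The amino acid transporters were Slc7a5 and Slc3a2, the light and heavy chain of the large neutral amino acid carrier, and Slc7a11, the cystine carrier that also pairs with Slc3a2. Slc7a5 was at 363, 237, 269 and 309 TPM in the vehicle libraries and at 356, 216, 276 and 309 TPM after the pulse. Slc3a2 was at 273, 151, 334 and 395 TPM and then at 258, 137, 332 and 394 TPM. Slc7a11 was at 57.2, 63.2, 63.9 and 46.5 TPM and then at 57.5, 59.1, 63.5 and 46.8 TPM. Only Slc3a2 separated the experiments, and none of the 3 passed, with differences of -0.02, 0.84 and -0.14 (limma, adjusted p = 0.96, 0.13 and 0.61).

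Fgf21, a hormone that stressed muscle releases and a known ATF4 target, was called lower in isolations 75 and 77. It was at 53.7, 56.1, 10.2 and 11.1 TPM in the vehicle libraries of isolations 48, 54, 75 and 77 and at 45.9, 51.7, 9.18 and 9.96 TPM after the pulse (chr7:45263310-45264914). Isolations of one experiment were close to each other, and the experiments did not overlap. Its vehicle difference was -2.31 ± 0.12, or 4.96-fold lower in isolations 75 and 77 (limma, adjusted p = 0.0023). The 7 genes with a C/EBP-ATF element in the promoter window had vehicle differences of both signs. These were 2.14 for Chac1, 2.12 for Trib3, 1.17 for Nupr1, 0.56 for Asns, -0.14 for Slc7a11, -0.73 for Herpud1 and -2.31 for Fgf21. Of the 8 genes with the first form of the ER stress element, Calr, Pdia6 and Syvn1 were called lower, as were 16.6% of all loci. Differences of the others were -1.18 for Creld2, -0.72 for Hsp90b1, -0.47 for Dnajc3, -0.15 for Hspa5 and 0.02 for Canx. Any part of these elements in the differences was not tested.

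**Figure D2:**
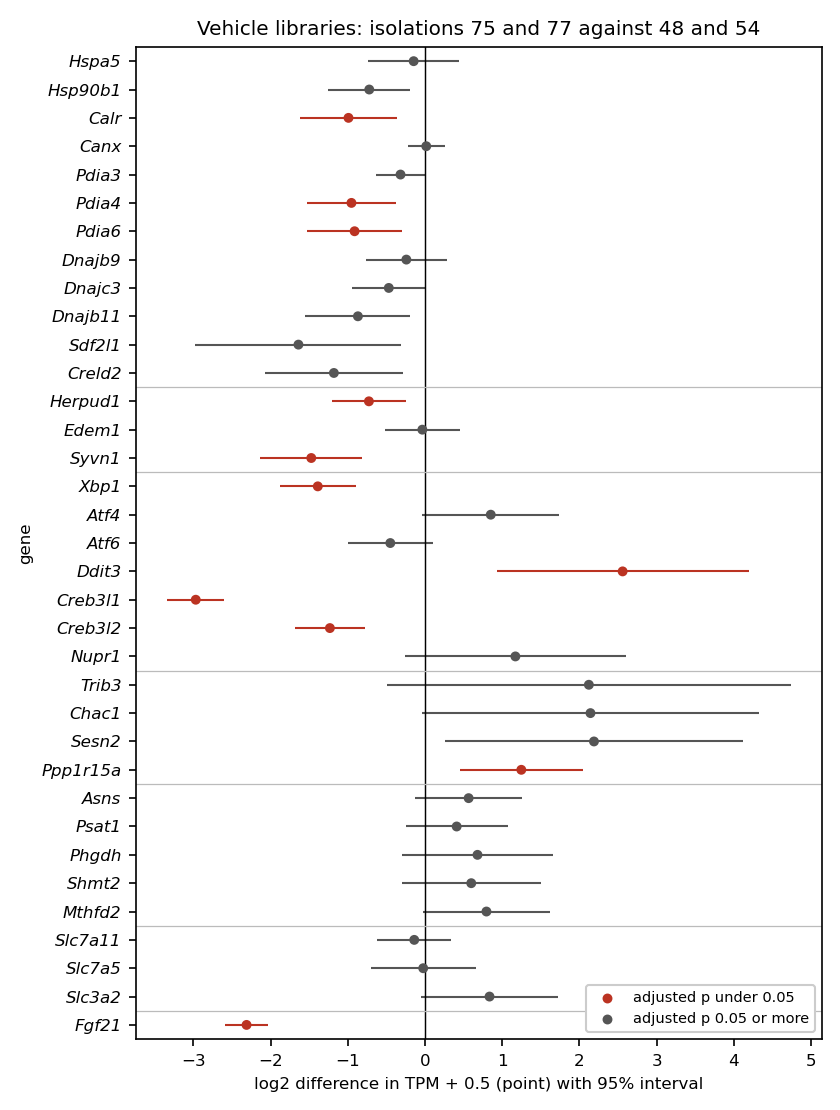
Difference in log2(TPM + 0.5) between the vehicle libraries of isolations 75 and 77 and those of isolations 48 and 54 (x axis), for the 35 genes (y axis, grouped by role as in the text). Points are limma estimates, lines are 95% intervals, and red marks the 11 genes with an adjusted p under 0.05, of which Ddit3 and Ppp1r15a lie to the right of 0.

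These calls rest on few libraries. Creb3l1 and Fgf21 alone were called when the vehicle library of isolation 54, 75 or 77 was left out, where 2.48%, 0.071% and 0.0296% of all loci were called. Without the vehicle library of isolation 48, 16 genes were called (31.0% of all loci). Without a BMP6 library, of isolation 75 or 77, 5 genes were called (12.1% and 12.3% of all loci), and without a BMP4 library, of isolation 48 or 54, 17 were (32.8% of all loci in each case). In these 8 fits the counts for the genes described here and for all loci moved in the same direction. With both libraries of isolation 75 or of isolation 77 left out, 0 genes were called by limma, as were 0 of all loci (9 and 5 genes had an unadjusted p under 0.05, and voom was not run on these subsets). By contrast, 30 genes were called without isolation 48 and 15 without isolation 54 (48.6% and 22.3% of all loci). Each library shares in 1 estimate of spread, so these counts also depend on how alike the remaining libraries are. That estimate treats the 8 libraries as independent, although paired libraries of an isolation deviate together (correlation across loci 0.707 and 0.455). The p values between the vehicles are therefore likely too small. With only the 4 vehicle libraries in the fit, 9 genes were called, as were 2879 of all 16908 loci. Centring the library medians turned the split of all called loci from 1799 higher and 2803 lower to 2742 higher and 2273 lower. For the genes described here it left 2 higher and 7 lower.

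A list of 66 other genes of the same pathways was counted in the same way. In the vehicle comparison 18 of 66 passed, 6 higher and 12 lower, a share of 27.3% beside the 27.2% of all loci. Folding, translocation and degradation genes gave 8 lower and 0 higher of 22 (36.4% called), with a median of -0.46. The lower ones include P4hb (-0.61 ± 0.11) and Derl1 (-0.64 ± 0.13). Sensors and signalling genes gave 3 higher and 2 lower of 10 (50.0% called). Ern1, which encodes IRE1, was higher by 0.99 ± 0.26, Eif2s1 by 0.80 ± 0.18 and Ppp1r15b by 0.81 ± 0.19 (limma, adjusted p = 0.038, 0.027 and 0.028). Eif2ak3, which encodes PERK, had a difference of -0.80 ± 0.15 and Creb3 one of -1.49 ± 0.33 (limma, adjusted p = 0.018 and 0.026). ATF4-arm targets gave 3 higher and 2 lower of 34 (14.7% called), with a median of 0.65. Atf3, a stress-induced factor, was higher by 2.12 ± 0.36, Slc38a2, a glutamine carrier, was higher by 0.95 ± 0.12, and Jdp2 had a difference of -1.17 ± 0.14 (limma, adjusted p = 0.015, 0.0086 and 0.0074).

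Within experiments, the isolations themselves differed. The ER lumen genes moved in the opposite direction to the feedback and effector genes and the synthesis genes. In isolation 54 against isolation 48, 11 of 12 ER lumen genes were higher in both the vehicle and the stimulated library and 0 were lower in both. All 4 feedback and effector genes and all 5 synthesis genes were lower in both. Other genes tied to ATF4 were divided. Of the 3 amino acid transporters, 2 were lower in both, while Slc7a11 was slightly higher in both (log2 differences 0.14 and 0.04). Fgf21 was also slightly higher in both (0.06 and 0.17). Over all loci, 35.1% were higher in both and 45.8% lower in both. At least 2-fold lower in both libraries of isolation 54 were 5 of the 35 genes (14.3%, against 1.2% of all loci), namely Ddit3, Nupr1, Trib3, Chac1 and Sesn2. Trib3 was 5.96-fold lower in the vehicle library and 7.59-fold lower in the BMP4 library. Sdf2l1 alone was at least 2-fold higher in both, by 2.23-fold and 2.37-fold (2.86% of the genes, against 3.62% of all loci). Each such comparison rests on 1 library a side and was not tested.

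Isolations 77 and 75 differed less, and again in opposite directions for the ER lumen genes and the feedback and effector genes. In isolation 77, 11 of 12 ER lumen genes were lower in both libraries and the 4 feedback and effector genes were higher in both, while 32.1% of all loci were higher and 42.1% lower in both. No gene of the 35 was at least 2-fold apart in both libraries, as were 0.237% of all loci higher and 0.195% lower. Ordered as 54, 48, 75 and 77, an order chosen after the values were seen, 10 of the 35 genes fell at each step in both the vehicle and the stimulated libraries (28.6%, against 12.5% of all loci). They were Hsp90b1, Calr, Pdia3, Pdia4, Pdia6, Dnajc3, Dnajb11, Sdf2l1, Creld2 and Syvn1. Another 10 rose at each step (28.6%, against 10.4%), namely Ddit3, Nupr1, Trib3, Chac1, Sesn2, Ppp1r15a, Asns, Shmt2, Mthfd2 and Slc3a2.

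The sums over role groups give the same order in TPM, but they add up the same genes and are no separate support for it. The 12 ER lumen genes summed to 2300, 1579, 1327 and 1257 TPM in the vehicle libraries of isolations 54, 48, 75 and 77. The 4 feedback and effector genes summed to 72.7, 174, 302 and 415 TPM, and the 5 synthesis enzymes to 835, 1436, 1618 and 1717 TPM. Differentiating muscle markers were highest in isolation 54 and next in isolation 48, but isolation 75 was below isolation 77. Fibroblast and fibro-adipogenic markers, 3 of 8 at 1 TPM or more, summed to between 28.8 and 175 TPM and were also highest in isolation 54, through Col1a1 and Col3a1, with Pdgfra at most 0.354 TPM. Pericyte and smooth muscle markers, 3 of 6 at 1 TPM or more, summed to between 9.26 and 60.0 TPM, highest in isolation 54, and Schwann cell markers, 4 of 5, to between 11.3 and 31.6 TPM, highest in isolation 77. The part of these markers in the order of the stress genes was not tested.

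**Figure D3:**
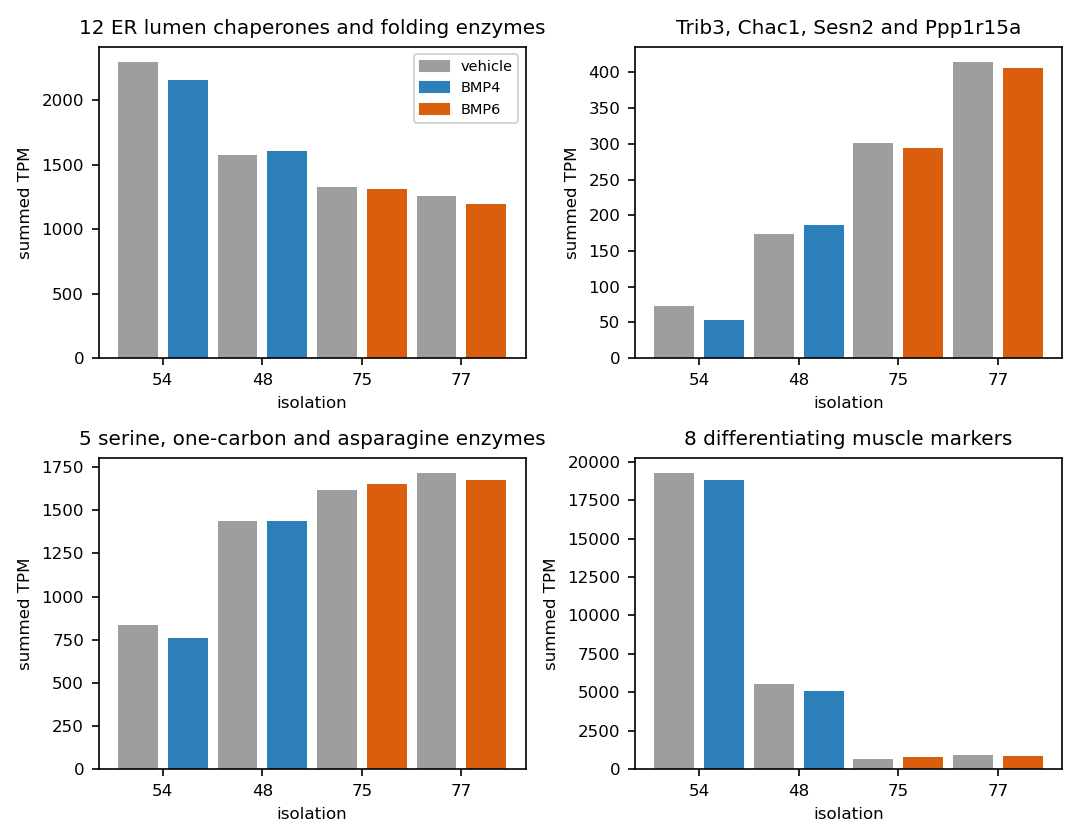
Summed TPM (y axis) of 3 role groups and of the 8 differentiating muscle markers in each library, by isolation (x axis), with grey bars for vehicle, blue for BMP4 and orange for BMP6. From isolation 54 to 77 the ER lumen sum falls from 2300 to 1257 TPM in the vehicle libraries and the feedback sum rises from 72.7 to 415 TPM, and the feedback sum of isolation 54 goes from 72.7 TPM with vehicle to 53.2 TPM with BMP4.

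The second question is whether the 1 h BMP pulse changed these genes. None of the 35 genes passed limma for BMP4 against its vehicle, where 0.0237% of all loci passed, or for BMP6 against its vehicle, where 0.0118% passed. None passed for the mean of both responses (0.071% of all loci) or for the difference between them (0.0% of all loci). At an unadjusted p under 0.05, 0 of 35 genes were found for BMP4 (3.31% of all loci), 1 for BMP6, namely Creb3l1 (1.26%), 0 for the mean (2.4%) and 0 for the difference (1.44%). Voom on estimated reads, the other tool run, also called 0 genes in each of these. In this fit the spread between isolations counts as error, and the BMP targets Id1 and Smad6 did not pass for either ligand. Only 26 of the 35 genes for BMP4 and 29 for BMP6 had a 95% interval within 2-fold either way. Over all 16908 loci these counts were 14076 and 14523.

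With the isolation as a replicate block, each stimulated library is set against the vehicle of its own isolation. Again 0 of 35 genes passed for BMP4, BMP6, their mean and their difference (limma, 0.633%, 0.148%, 0.674% and 0.0% of all loci passed). The 95% intervals of all 35 genes then lay within 2-fold either way for both ligands. They ran from -0.66 to 0.50 on the log2 scale for BMP4 and from -0.53 to 0.57 for BMP6. Of all 16908 loci, 16048 for BMP4 and 16223 for BMP6 had such an interval within 2-fold. The median change was -0.04 for BMP4 and -0.02 for BMP6, beside -0.02 and -0.00 over all loci. At an unadjusted p under 0.05 there were 13 of 35 genes for BMP4 (37.1%, against 20.3% of all loci) and 4 for BMP6 (11.4%, against 5.72%). Voom with the same block called 0 of 35 genes for BMP6, where it called 73 of 16908 loci. For BMP4 it called 1039 of 16908 loci (6.15%) and 3 of the 35 genes. They were Syvn1, Sdf2l1 and Slc3a2, all lower, by log2 changes of -0.30, -0.29 and -0.17 (adjusted p = 0.013, 0.0496 and 0.032).

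**Figure D4:**
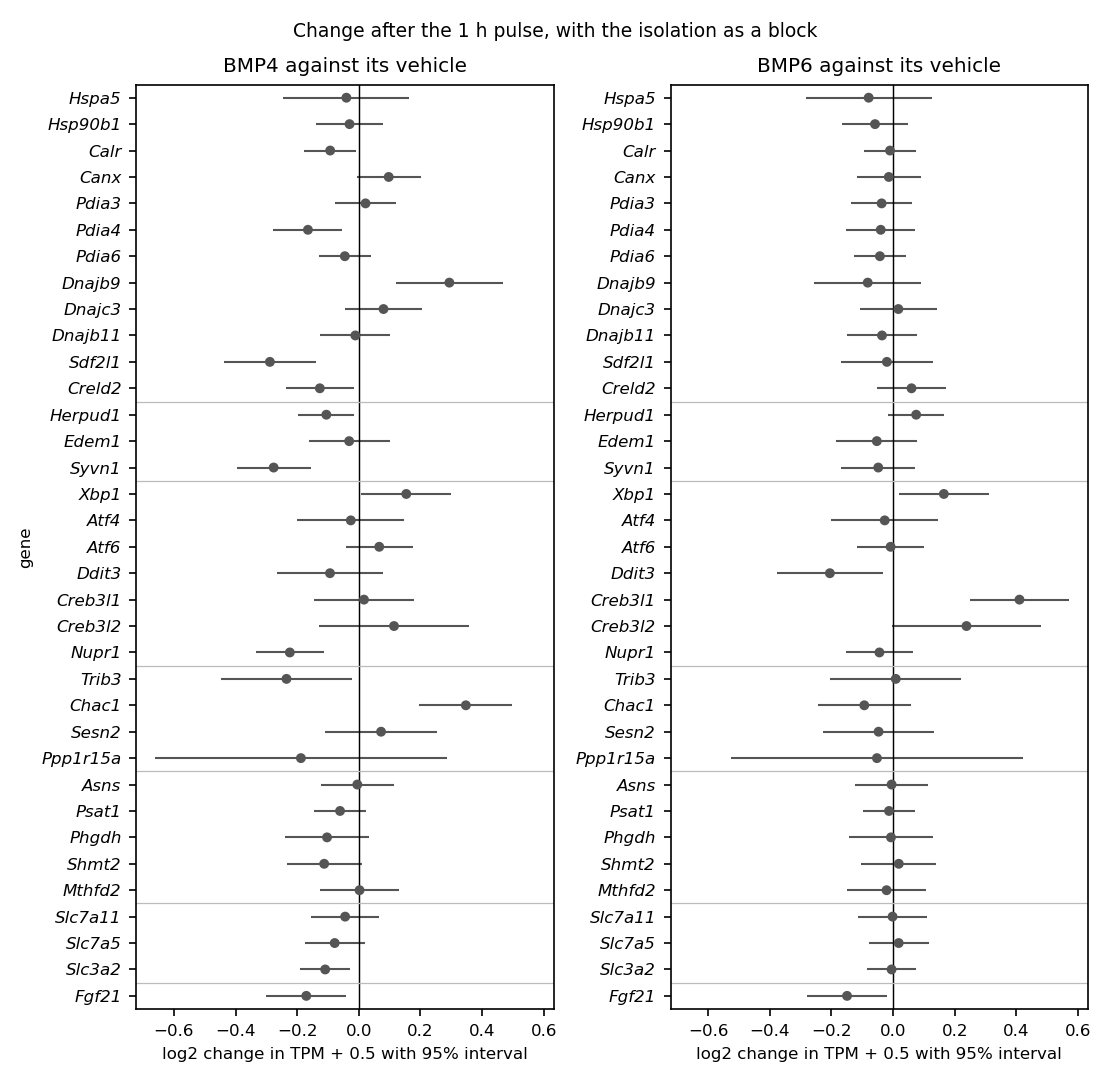
Change in log2(TPM + 0.5) after the 1 h pulse against the vehicle of the same isolation (x axis) for the 35 genes (y axis, grouped by role), for BMP4 at left and BMP6 at right. Points are limma estimates with the isolation as a block and lines are 95% intervals. All intervals lie between -0.66 and 0.57, and no gene had an adjusted p under 0.05.

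The smallest p values for BMP4 belonged to Chac1 and Syvn1. Chac1 went from 23.1 to 28.2 TPM in isolation 48 and from 4.16 to 5.69 TPM in isolation 54, a change of 0.35 ± 0.06 (limma with the block, adjusted p = 0.092). Syvn1 went from 34.2 to 27.7 TPM and from 50.5 to 42.2 TPM, a change of -0.28 ± 0.05 (adjusted p = 0.092 in limma with the block). Both moved the same way in each isolation by less than the isolations differ. With BMP6, Chac1 had a change of -0.09 ± 0.06 and Syvn1 one of -0.05 ± 0.05. The difference between the ligands was -0.44 (95% interval -0.65 to -0.23) for Chac1 and 0.23 (0.06 to 0.40) for Syvn1. Neither passed (limma with the block, adjusted p = 0.26 and 0.32). Both genes were picked by their BMP4 p values, and the same BMP4 changes enter these differences. The intervals are unadjusted and do not allow for that choice.

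Creb3l1 had the smallest p value for BMP6. It went from 6.72 to 9.31 TPM in isolation 75 and from 8.47 to 11.2 TPM in isolation 77, a change of 0.41 ± 0.06 (limma with the block, adjusted p = 0.22). For BMP4 its change was 0.02 ± 0.06. Ppp1r15a had the widest interval of the 35 genes for both ligands. Under BMP4 its isolations moved in opposite directions, since it went from 57.7 to 66.9 TPM in isolation 48 and from 51.9 to 34.4 TPM in isolation 54. Without isolation 48, limma with the block called Ppp1r15a lower, for BMP4 (-0.59, adjusted p = 0.0399) and for the mean (-0.32, adjusted p = 0.044). The BMP4 side is then the single pair of isolation 54, which is assumed to vary like the BMP6 pairs, and the mean averages it with the BMP6 change of -0.05.

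A change of one sign in all 4 isolations was found for 7 of the 35 genes. Xbp1 and Creb3l2 were higher after the pulse in all 4 (5.71% of the genes, against 8.19% of all loci). Pdia6, Edem1, Syvn1, Slc3a2 and Fgf21 were lower in all 4 (14.3%, against 9.2%). The mean change was 0.16 ± 0.04 for Xbp1 and -0.16 ± 0.04 for Fgf21, and neither passed (limma with the block, adjusted p = 0.24 and 0.20). Of the 66 other pathway genes, 0 passed for BMP6 with the block (0.148% of all loci did). For BMP4 the only one called was Ddit4 (1.52%, against 0.633% of all loci), an mTORC1 inhibitor that ATF4 and other factors induce. Ddit4 went from 54.7 to 101 TPM in isolation 48 and from 25.8 to 60.2 TPM in isolation 54, with a BMP4 change of 1.04 ± 0.08 (limma with the block, adjusted p = 0.025). Without the block it was not called (1.04 ± 0.42). For BMP6 the change of Ddit4 was 0.21 ± 0.08. Its mean change over both ligands, 0.62 ± 0.06, passed, and the difference between ligands did not (limma with the block, adjusted p = 0.031 and 0.23).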

How the data were processed

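Strand-specific libraries of poly(A) RNA from 8 cultures were read as 50 nt single ends, per the labels' protocols. The submitters' processing notes list STAR 2.7.11a, SAMtools 1.17 and build GRCm39. TPM, FPKM and coverage signal come from the authors' StringTie 2.2.1 runs on an annotation they merged, and the strand option and the correction for multiply mapped reads were not set, per the file headers. Each deposited library table held the same TPM as the joint table (tolerance 1e-05). Reads were estimated from coverage, transcript length and the 50 nt read length.

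The model was limma 3.58.1 in R 4.3.3, with 1 mean per group (4 in all) and a variance trend, on log2(TPM + 0.5) of the 16908 loci whose mean TPM reached 0.5. The pseudocount understates changes of low genes. P values were two-sided and Benjamini-Hochberg adjusted over all these loci, with a threshold of 0.05. The 5 comparisons are the vehicles, each ligand against its vehicle, and the mean and the difference of both responses. Vehicle and stimulated libraries are paired by the IP code they share in the labels, which is read here as a cell isolation, although the labels do not spell it out. After subtracting group means, the paired libraries correlated across loci at 0.707 (48, 54) and 0.455 (75, 77). The fit was tested on simulated data. Alternatives were other pseudocounts, filters, FPKM, centring, no trend, voom, the replicate block, fewer libraries, left-out libraries and isolations, and transcripts named for the gene.

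The genes, lists, markers, motifs and tests were chosen with earlier results of these data known. All 36 genes are named. Values per library are given for genes that passed a comparison and for the 3 with the highest mean TPM in each of 7 role groups. Other pathway genes are named by smallest p, together with all sensors and signalling genes called between the vehicles. Of the other pathway genes, 8 were found under an older symbol. Creb3l1, Slc7a5, Manf and Atf6 had no promoter window.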

Additional observations from a re-analysis of the deposited data

How the results depend on the processing

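In the vehicle comparison the count of 11 called genes was 9 to 11 under both other pseudocounts, a filter at 5 TPM, FPKM, centred medians, no variance trend, voom, only the 4 libraries compared, and transcripts named for the gene. Over all loci those fits called 2879 to 5015. The count was 5 with no filter, where 2490 of 31741 loci were called, against 4602 of 16908 in the main fit. Leaving out a library or an isolation gave 0 to 30. Leaving out both libraries of an isolation without a block, and summing named transcripts, were added after seeing the data. For BMP4 against its vehicle the count of 0 held in the replicate block (0) and became 3 in the replicate block with voom on estimated reads, and leaving out a library or isolation gave 0 to 1. For the mean of both responses leaving out a library or isolation also gave 0 to 1. The counts for BMP6 and for the difference between ligands were 0 in every alternative run. None of the 11 genes called between the vehicles changed sign under any alternative run. Ppp1r15a, called lower for BMP4 in the replicate block without isolation 48 (-0.59), had a change of 0.21 without isolation 54. With 2 isolations per experiment, the spread between isolations limits the precision. Values of genes that overlap others on the opposite strand (Ddit3, Syvn1) carry the uncertainty of unstranded counting.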
